A study of Rattus norvegicus with 9 samples.

Results

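Star, Cyp11a1, Cyp17a1, Cyp19a1, Hsd3b1, Hsd17b3, Hsd11b1, Srd5a1, Insl3 and Lhcgr are genes by which steroid synthesis in the testis, and the Leydig cell that carries it out, are commonly recognised. They were taken by name: every probe whose gene name on the array was one of these 10, of 35658 names, with an ending that marks a predicted gene dropped. This gave 14 of the 41012 probes. The name Hsd3b1 stood on 2 probes whose accessions now belong to Hsd3b1 and Hsd3b2, so 11 current genes were covered. The rule uses no measured value.

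The RNA came from Sertoli cells, the epithelial cells that nurse germ cells inside the seminiferous tubule, taken from testes of rats 5, 12 and 60 days old. Cells of all 3 ages spent 4 days in a defined growth factor medium and were then given oFSH (50 ng/ml) with testosterone (1e-07 M) in pulses over 11 h, so no group was free of added hormone. Each age was hybridised to 3 one-colour arrays, and each slide, numbered as replicate 1, 2 or 3, carried 1 array of every age. The labels give no strain and do not tell what a replicate was, an animal, a culture or a repeat of the same RNA, so each p-value reflects only how these 9 samples scatter, which may be technical.

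In Leydig cells luteinising hormone acts through its receptor, Lhcgr, and Star carries cholesterol to the inner mitochondrial membrane. There Cyp11a1 cleaves the side chain to give pregnenolone, Hsd3b1 and Cyp17a1 turn it into androstenedione, Hsd17b3 makes testosterone, and Srd5a1 and Cyp19a1 convert testosterone to dihydrotestosterone and oestradiol. Hsd11b1 interconverts active and inactive glucocorticoid, and Insl3 is a peptide hormone of the Leydig cell. Immature Sertoli cells are known for aromatase activity under FSH, while the cleavage of cholesterol and the synthesis of androgen are assigned to the interstitium.

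The level of a probe is given as the log2 of its processed signal over the 75th percentile of its array, so a level of 0 is the signal that 75% of the probes lay under. Levels of different probes are not compared as amounts of RNA, since probes differ in how strongly they bind. The words dim and bright, and the sums over lists, describe signal only. Of the 14 probes, 5 were well above background on all 9 arrays and 3 on none. A probe was tested if, at some age, 2 or more of the 3 arrays read it well above background. This left 11 probes, and 9 genes after the brightest probe was taken for each gene, among 22529 genes tested. Genes that passed only through the age at which they are high had to differ, so the counts below describe the 9 genes tested and not all 11. The same holds for genes of the lists below, whose counts and p-values give no support where a gene passed in this way.

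The sequences that carry the results most directly are those of the Hsd3b pair, which tell its members apart, and those of the 3 probes that found no signal, since a missing signal speaks only of these stretches. All are 60-base probes as the files give them, 5′ to 3′, in lower case throughout because no part of them is set apart. The Hsd3b1 probe lies at chr2:193501839-193501898 and the Hsd3b2 probe at chr2:193337952-193338011 in the rn4 build, both on the minus strand. Each lists transcripts of the other gene beside its own, so signal from one gene on the probe of the other cannot be told apart here. The Cyp19a1 probe lies at chr8:57651982-57652041, the first Lhcgr probe at chr6:12614473-12614532 and the second across chr6:12642832-12649082, a span of 6251 bases that its 60 bases do not fill. No annotation of rn4 was used here, so exons and introns are not stated.
Hsd3b1: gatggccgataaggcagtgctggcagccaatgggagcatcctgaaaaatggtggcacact
Hsd3b2: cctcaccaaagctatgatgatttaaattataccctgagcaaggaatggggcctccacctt
Cyp19a1: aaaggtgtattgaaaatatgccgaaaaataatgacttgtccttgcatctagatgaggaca
Lhcgr, first probe: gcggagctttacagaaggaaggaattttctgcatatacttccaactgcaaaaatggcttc
Lhcgr, second probe: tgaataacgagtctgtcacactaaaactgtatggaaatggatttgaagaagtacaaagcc

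The genes did not move as a block. Between 5 and 12 days Star rose and Cyp17a1, Hsd3b1, Hsd3b2 and Hsd11b1 fell, which is 5 of the 9 genes tested (limma, adjusted p under 0.05), where 12.4% of all genes were called (6.15% upward, 6.3% downward). Between 12 and 60 days 3 of 9 were called, Star upward and Cyp17a1 and Hsd17b3 downward, against 25.4% of all genes (12.3% upward, 13.1% downward). Between 5 and 60 days 6 of 9 were called, against 35.3% (17.3% upward, 18.0% downward): Star rose, and Cyp17a1, Hsd3b1, Hsd3b2, Hsd17b3 and Hsd11b1 fell. The same 6 were called by the F-test over the 3 ages, against 36.7%. The median log2 change of the 9 genes was -1.33, 0.88 and -2.17 for the 3 comparisons in that order, beside 0.05, -0.16 and -0.09 over all genes tested. The comparisons share arrays and are not independent of each other. The 7 spike-in controls shifted unevenly between slides, by 2.16, 0.04 and 1.85 (log2) from 5 to 12 days and by 1.18, -0.25 and 0.39 from 5 to 60 days on slides 1, 2 and 3. A scale set by these controls instead of the 75th percentile moved the median of all genes to -1.30, 0.74 and -0.53, and turned 1385 rises and 1419 falls from 5 to 12 days into 117 and 3372, 2762 and 2953 from 12 to 60 days into 3070 and 538, and 3895 and 4065 from 5 to 60 days into 1784 and 3048. With normexp background correction, possible only on the arrays of replicates 1 and 3, none of the 9 was called in any comparison. That setting called 4, 2 and 209 of all genes in the 3 comparisons, and Hsd11b1 still differed by -3.65 from 5 to 12 days and -3.04 from 5 to 60 days (log2, adjusted p = 0.2 and 0.066 by limma). The other changes from 5 to 60 days shrank more in size. They became -1.18 for Hsd3b1, -0.61 for Hsd3b2, -0.63 for Hsd17b3, -0.94 for Cyp17a1 and 1.69 for Star. This setting also added an offset of 50 units to each signal, which in itself makes the folds of dim probes smaller. The folds printed below therefore depend on this choice, and the parts of the offset and the background correction were not told apart.

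**Figure D1:**
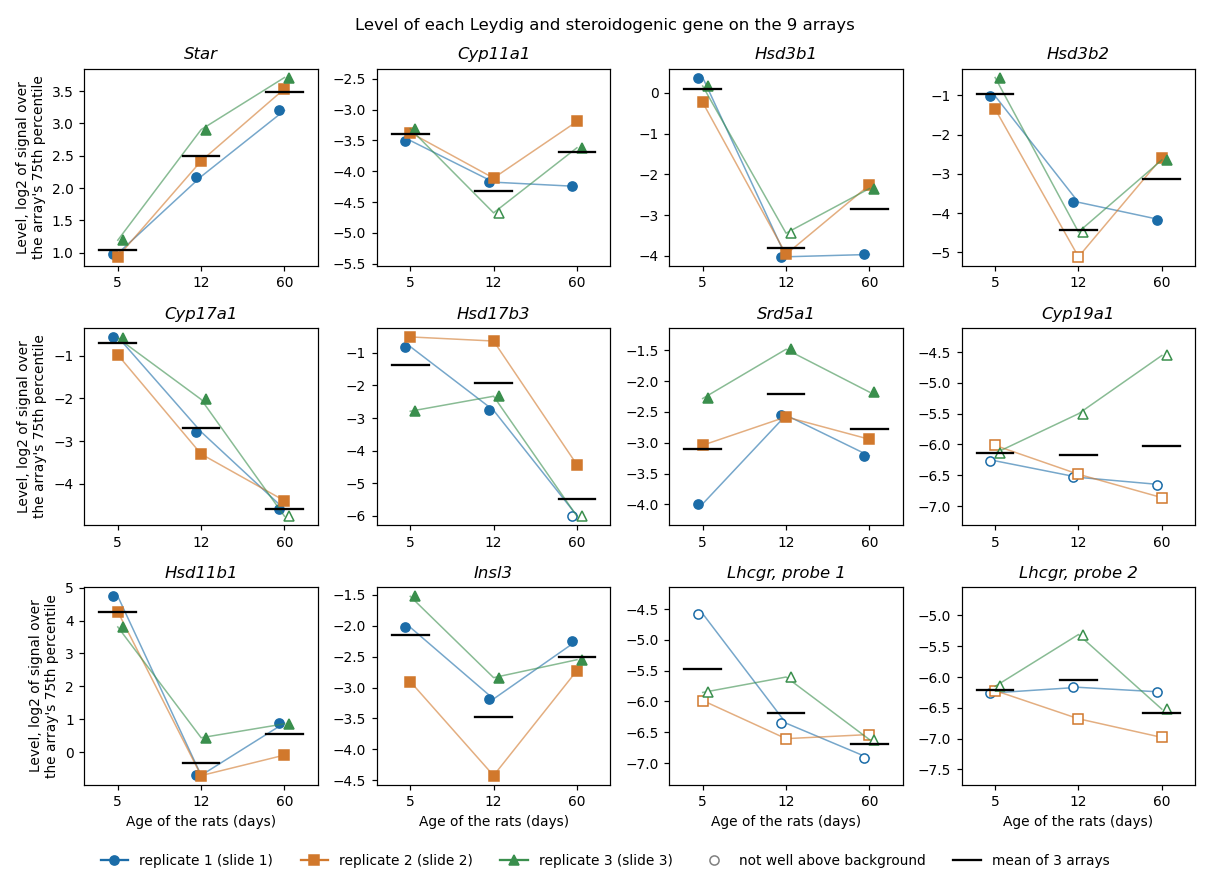
Level of each gene (vertical axis, log2 of signal over the array's 75th percentile, with its own range per panel) at 5, 12 and 60 days, for the probe that stands for the gene and both Lhcgr probes. Points are arrays, lines join arrays of a slide, open points were not well above background, and bars are means of 3 arrays. Star climbs on every slide from about 1 to above 3, Cyp17a1 descends on every slide, and Cyp19a1 and Lhcgr have only open points.

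Luteinising hormone receptor gave no signal. The first Lhcgr probe was well above background on 0 of 9 arrays, with processed signals from 2.22 to 6.29 intensity units. The second probe is spotted 10 times on each array, and 1 of its 87 usable spots was well above background, with mean signals from 1.96 to 4.49 units. The lowest signal of any probe called well above background was 8.93 to 20.7 units, depending on the array. Lhcgr therefore had no measurable level at any age, and a fold change was not formed.

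Star rose at both steps, though the calls of the single steps rested on few arrays. On replicates 1, 2 and 3 its level was 0.99, 0.94 and 1.19 at 5 days, 2.18, 2.42 and 2.90 at 12 days, and 3.20, 3.53 and 3.71 at 60 days. No array of one age overlapped another age, and the order of the ages was the same on every slide. Means were 1.04 ± 0.14, 2.5 ± 0.37 and 3.48 ± 0.26 (SD, n = 3 each). The change from 5 to 12 days was 1.46 ± 0.32 (log2 ± SE, 2.75-fold, adjusted p = 0.0129 by limma). From 12 to 60 days it was 0.98 ± 0.32 (1.97-fold, adjusted p = 0.0461 by limma), and over the whole span 2.44 ± 0.32 (5.44-fold, adjusted p = 0.000146 by limma). The Star probe (chr16:70640879-70640938, rn4, minus strand) was spotted 10 times per array, and its spots within an array differed by an SD of only 0.0183 to 0.108 on the log2 scale. The first step lost its call without slide 2 or slide 3 (adjusted p by limma 0.152 and 0.0942), without slide 2 at 5 days (0.0553) and on the spike-in scale, where it was 0.11. The second step was called only narrowly. It lost its call without any 1 slide (0.105, 0.266 and 0.114 for slides 1, 2 and 3), on the spike-in scale (1.89, adjusted p = 0.0913), with no filter (0.0891) and with only the ages compared (0.0813). It was lost in 7 of the 9 fits that left out a single array (0.0525 to 0.145), the exceptions being slide 3 at 12 days and slide 1 at 60 days, and the whole span lost its call on the spike-in scale (0.0546).

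Cyp11a1, which makes pregnenolone from the cholesterol that Star delivers, was dim and did not pass the test. Its levels were -3.50, -3.37 and -3.31 at 5 days, -4.18, -4.11 and -4.68 at 12 days, and -4.25, -3.19 and -3.62 at 60 days. All 3 arrays at 12 days lay under all 3 at 5 days, while the 60-day arrays overlapped both. The change from 5 to 12 days was -0.93 ± 0.35 (log2 ± SE, adjusted p = 0.13 by limma), that from 12 to 60 days 0.64 ± 0.35 (adjusted p = 0.223) and that from 5 to 60 days -0.29 ± 0.35 (adjusted p = 0.563). The spike-in scale alone made the first of these a call, at -2.27 (adjusted p = 0.0338 by limma). The probe (chr8:61804584-61804643, rn4, plus strand) was well above background on 8 of 9 arrays, with signals from 6.22 to 47.8 units. Star and Cyp11a1 act one after the other, and over the 9 arrays their levels differed by a root mean square of 1.27 once each was centred on its mean.

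The 3-beta-hydroxysteroid dehydrogenases, which convert pregnenolone and its relatives to their 4-ene forms, fell steeply after 5 days. Hsd3b1 stood at 0.38, -0.23 and 0.17 at 5 days, at -4.03, -3.96 and -3.44 at 12 days, and at -3.97, -2.26 and -2.35 at 60 days. The 5-day arrays were far above all others, and at 60 days replicate 1 stayed at its 12-day level while replicates 2 and 3 stood higher. The change from 5 to 12 days was -3.92 ± 0.46 (log2 ± SE, 15.1-fold lower, adjusted p = 0.000392 by limma), and from 5 to 60 days -2.96 ± 0.46 (7.81-fold lower, adjusted p = 0.000491). The change from 12 to 60 days was 0.95 ± 0.46 (adjusted p = 0.166), with slide differences of 0.06, 1.70 and 1.1. With slide 1 at 60 days left out this was 1.51 and passed the test (adjusted p = 0.012 by limma), as it did without replicate 1 altogether (1.40, adjusted p = 0.0386).

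The Hsd3b2 probe gave the same course. Its levels were -1.01, -1.35 and -0.54 at 5 days, -3.72, -5.11 and -4.48 at 12 days, and -4.18, -2.59 and -2.64 at 60 days. Again the 5-day arrays stood apart, and again replicate 1 was the low array at 60 days. It fell by 3.47 ± 0.51 from 5 to 12 days on the log2 scale (adjusted p = 0.00133 by limma), where 1 of 3 arrays at 12 days was well above background (11.1-fold lower, and 7.35-fold with the other 12-day arrays set at the lowest signal well above background), and by 2.17 ± 0.51 from 5 to 60 days (adjusted p = 0.00644). From 12 to 60 days it changed by 1.30 ± 0.51 (adjusted p = 0.0874), which became a call without replicate 1 (2.18, adjusted p = 0.0145 by limma), with slide 1 left out at 60 days only (1.82, adjusted p = 0.0155) and on the spike-in scale (2.21, adjusted p = 0.0373). Of all pairs among the 9 genes tested, Hsd3b1 and Hsd3b2 had the smallest root mean square difference of centred levels, 0.53. A shared course of the genes and signal shared between their probes cannot be told apart here.

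Cyp17a1, the 17-hydroxylase and lyase that opens the way from pregnanes to androgens, fell at each step. Its levels were -0.56, -0.98 and -0.59 at 5 days, -2.78, -3.30 and -2.02 at 12 days, and -4.59, -4.39 and -4.76 at 60 days. The ages did not overlap, and each slide showed the same order. The change from 5 to 12 days was -1.99 ± 0.37 (log2 ± SE, 3.98-fold lower, adjusted p = 0.00528 by limma), from 12 to 60 days -1.88 ± 0.37 (3.68-fold lower, adjusted p = 0.00368) and from 5 to 60 days -3.87 ± 0.37 (14.6-fold lower, adjusted p = 1.67e-05). At 60 days 2 of 3 arrays were well above background. The lowest signal, 11.2 units, was that of the 60-day array of replicate 1. The probe lies at chr1:251965532-251965591 in rn4, on the minus strand. The first step lost its call without replicate 1 or 2 (adjusted p by limma 0.0785 and 0.0702), and the second without replicate 3 (0.0507) and on the spike-in scale (-0.97, adjusted p = 0.473).

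Hsd17b3, the testicular enzyme that reduces androstenedione to testosterone, had another time course. Its levels were -0.81, -0.51 and -2.79 at 5 days, -2.76, -0.64 and -2.33 at 12 days, and -5.99, -4.43 and -6.01 at 60 days. The 5-day and 12-day arrays overlapped, and the differences between them on slides 1, 2 and 3 were -1.95, -0.13 and 0.46. All 60-day arrays lay under all others, and 1 of them was well above background. The change from 5 to 12 days was -0.54 ± 0.73 (log2 ± SE, adjusted p = 0.75 by limma). From 12 to 60 days it was -3.57 ± 0.73 (11.9-fold lower, adjusted p = 0.00439) and from 5 to 60 days -4.11 ± 0.73 (17.3-fold lower, adjusted p = 0.00112). These folds rest in part on background readings: with the 60-day arrays that were not well above background set at the lowest signal well above it, they were 6.02 and 8.76. Its SE was the largest of the 9 genes, and the probe (chr17:6585290-6585349, rn4, plus strand) gave signals from 4.22 to 235 units.

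The enzymes that act on testosterone gave little. Cyp19a1, the aromatase that makes oestradiol, was well above background on 0 of 9 arrays, with signals from 1.95 to 13.9 units. Its single probe found no signal in cells that had received FSH and testosterone. Srd5a1, a 5-alpha-reductase, was read by a pair of probes on chr17 (3878645-3878704 and 3854451-3854510, rn4, plus strand). The brighter probe was well above background on all 9 arrays, at -3.99, -3.04 and -2.28 at 5 days, -2.55, -2.58 and -1.48 at 12 days, and -3.21, -2.94 and -2.18 at 60 days. Replicate 3 was the highest array at every age, and the ages overlapped. The changes were 0.90 ± 0.50 from 5 to 12 days (log2 ± SE, adjusted p = 0.328 by limma), -0.57 ± 0.50 from 12 to 60 days (adjusted p = 0.457) and 0.33 ± 0.50 from 5 to 60 days (adjusted p = 0.657). The direction was upward on 3 of 3 slides at the first step and downward on 3 of 3 at the second, but on the spike-in scale both signs turned (-0.45 and 0.33). The dimmer probe was well above background on 2 arrays, both at 60 days.

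Hsd11b1, the 11-beta-hydroxysteroid dehydrogenase that can regenerate active glucocorticoid, had the largest fall of the 9 genes from 5 to 12 days. Its brighter probe (chr13:109063878-109063937, rn4, minus strand) stood at 4.74, 4.27 and 3.81 at 5 days, -0.70, -0.71 and 0.44 at 12 days, and 0.89, -0.09 and 0.86 at 60 days. The 5-day arrays lay above all others, and the later ages overlapped. The change from 5 to 12 days was -4.59 ± 0.44 (log2 ± SE, 24.1-fold lower, adjusted p = 0.000132 by limma) and from 5 to 60 days -3.71 ± 0.44 (13.1-fold lower, adjusted p = 7.19e-05). From 12 to 60 days it was 0.88 ± 0.44 (adjusted p = 0.18), positive on 3 of 3 slides. The other probe (chr13:109063624-109063683) was at 3.43, 3.12 and 2.03, then -1.92, -2.03 and -1.28, then 0.32, -1.42 and -0.94. With every probe tested on its own, it gave -4.61 ± 0.52, 1.07 ± 0.52 and -3.54 ± 0.52 for the 3 comparisons (adjusted p = 0.000291, 0.166 and 0.000313 by limma), so both probes gave the same calls. These calls held in each fit that left out an array or a replicate number.

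Insl3, the insulin-like peptide that Leydig cells secrete and that guides descent of the testis, was dim at every age. Its levels were -2.03, -2.90 and -1.53 at 5 days, -3.18, -4.42 and -2.84 at 12 days, and -2.24, -2.73 and -2.55 at 60 days, well above background on all 9 arrays. Every slide was lowest at 12 days. The changes were -1.33 ± 0.48 from 5 to 12 days (log2 ± SE, adjusted p = 0.109 by limma), 0.98 ± 0.48 from 12 to 60 days (adjusted p = 0.17) and -0.35 ± 0.48 from 5 to 60 days (adjusted p = 0.609). With the replicate number as a block, which takes out the differences between slides, the first change was called (adjusted p = 0.0226 by limma, SE 0.33) and so was the second (adjusted p = 0.0471). The spike-in scale also called the first, at -2.68 (adjusted p = 0.00959). The probe lies at chr16:18891252-18891311 in rn4, on the plus strand.

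**Figure D2:**
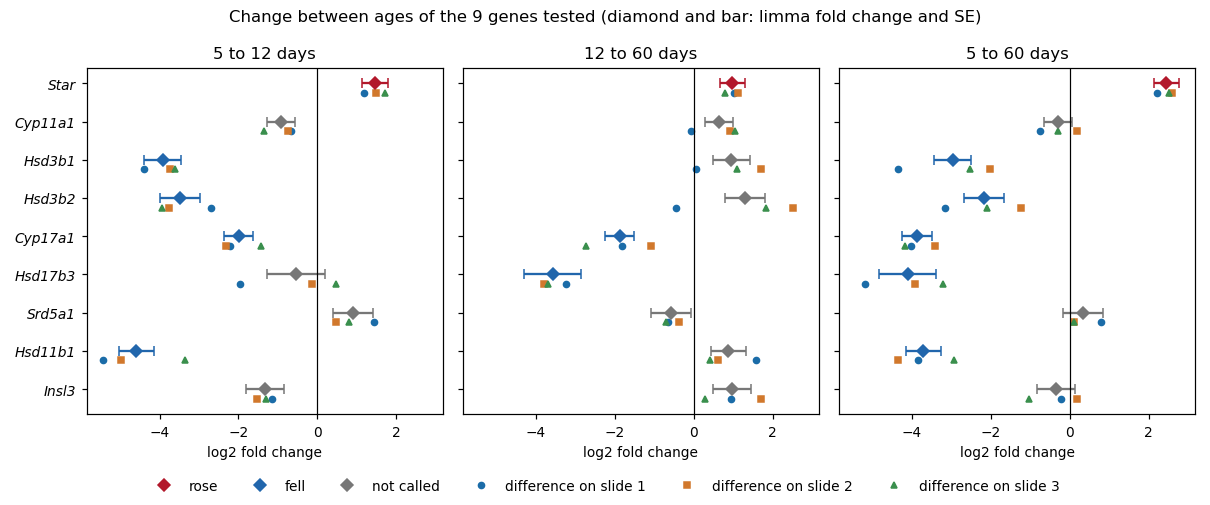
Change between ages of the 9 genes tested (horizontal axis, log2 fold change, later age over earlier). Diamonds and bars are the limma fold change and its SE, red where the gene rose, blue where it fell and grey where it was not called, and small symbols are the differences on the 3 slides. Star is the 1 gene drawn as rising, in all panels, and the largest falls from 5 to 12 days are those of Hsd11b1 and Hsd3b1.

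Fdxr and Fdx1, which pass electrons to Cyp11a1, rose between 5 and 60 days. Of 7 electron donors and cofactor suppliers tested, 2 rose from 5 to 12 days, 2 from 12 to 60 days and 3 from 5 to 60 days, and 0 fell in any comparison, also by limma's unadjusted p under 0.05 (median log2 change -0.05, 0.59 and 1.21). Of all genes, 12.4%, 25.4% and 35.3% were called in these comparisons, so the last 2 counts of the list lay near the general share. Fdxr, the reductase that starts the chain, had levels of 2.69, 1.88 and 2.71 at 5 days, 4.74, 3.95 and 5.15 at 12 days, and 5.16, 5.12 and 5.02 at 60 days. The 5-day arrays lay under all others, and the change was 2.19 ± 0.39 from 5 to 12 days (adjusted p = 0.00399 by limma, and 0.38 on the spike-in scale) and 2.67 ± 0.39 from 5 to 60 days (adjusted p = 0.000291). Fdx1, the adrenodoxin that hands electrons to Cyp11a1, rose by 1.83 ± 0.31 from 5 to 60 days on the log2 scale (adjusted p = 0.000901 by limma), with levels of 3.89 to 4.15 at 5 days and 5.56 to 6.09 at 60 days, a call lost on the spike-in scale (1.39, adjusted p = 0.229). Its rise of 1.24 from 5 to 12 days (adjusted p = 0.0254) was lost without replicate 2 or 3 (0.244 and 0.204) or without the 5-day or 12-day array of either (0.0757 to 0.089), and on the spike-in scale its sign turned (-0.11). H6pd, which supplies NADPH to Hsd11b1, was not well above background at 5 or 12 days and was at least 1.43-fold higher at 60 days. It passed the filter only through the 60-day arrays, so it had to differ. Its call from 12 to 60 days was lost without replicate 2 or 3 (adjusted p = 0.0956 and 0.0539 by limma). Por, which serves Cyp17a1, changed by 1.21 ± 0.46 from 5 to 60 days (adjusted p = 0.0614, and 0.0469 with the replicate block).

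Of 13 genes of cholesterol supply tested, 0 rose and 1 fell from 5 to 12 days, 1 rose and 1 fell from 12 to 60 days, and 1 rose and 2 fell from 5 to 60 days (median log2 change -0.06, -0.23 and -0.08). The counts are small, beside 12.4%, 25.4% and 35.3% of all genes called, and no difference from these shares was tested. A further 2 genes were on the array under the filter. Without adjustment (limma, p under 0.05) 1 was higher at 12 than at 5 days. Tspo, an outer mitochondrial membrane protein long linked to cholesterol import, stood at 3.35, 3.16 and 2.56 at 5 days, 1.58, 2.03 and 1.93 at 12 days, and 4.01, 4.74 and 4.11 at 60 days. It rose by 2.44 ± 0.35 from 12 to 60 days on the log2 scale (adjusted p = 0.000502 by limma), and its change of -1.18 ± 0.35 from 5 to 12 days just missed the threshold (adjusted p = 0.0526, and 0.0296 with the replicate block). Scarb1, which takes up cholesteryl ester from high-density lipoprotein, differed by 0.41 ± 0.61, -0.31 ± 0.61 and 0.10 ± 0.61 in the 3 comparisons and was not called.

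Other steroid dehydrogenases and reductases were mixed. Of 14 tested, Hsd3b2 included, 2 rose and 1 fell from 5 to 12 days, 0 rose and 3 fell from 12 to 60 days, and 1 rose and 4 fell from 5 to 60 days, with 3 higher at 60 than at 12 days by limma's unadjusted p under 0.05 (median log2 change -0.22, 0.24 and -0.33). Of all genes, 12.4%, 25.4% and 35.3% were called in the 3 comparisons, so the counts from 12 to 60 and 5 to 60 days lay near the general share. Akr1b7, an aldo-keto reductase that detoxifies the isocaproaldehyde left by side-chain cleavage, fell by 3.67 ± 0.40 from 12 to 60 days on the log2 scale (adjusted p = 8.44e-05 by limma). Its levels were -1.98, -2.61 and -2.51 at 5 days, -0.31, -0.88 and -1.15 at 12 days, and -5.15, -4.0 and -4.20 at 60 days, so that no age overlapped another. Hsd17b1, which makes oestradiol from oestrone, changed by 1.26 ± 0.35 from 5 to 60 days (adjusted p = 0.0161). Leaving out slide 2 or 3 ended this call (0.184 and 0.107 by limma), as did leaving out slide 2 at 5 days (0.0513) or slide 2 or 3 at 60 days (0.07 and 0.0567), and with the replicate block its change of 1.02 from 12 to 60 days was also called (0.0369). Srd5a2, the other 5-alpha-reductase, differed by -0.22, 0.64 and 0.42 (SE 0.51) and was not called.

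The tested genes that hydroxylate, sulphate or desulphate steroids mostly fell between 5 and 12 days, though Cyp7b1 among them had to differ. Of 6 tested, 1 rose and 4 fell from 5 to 12 days, 2 rose and 0 fell from 12 to 60 days, and 1 rose and 3 fell from 5 to 60 days (median log2 change -2.60, -0.10 and -2.32). The shares over all genes were 12.4%, 25.4% and 35.3%. Cyp7b1, a 7-alpha-hydroxylase of androgen precursors and oxysterols, was at 0.46, -0.36 and -1.85 at 5 days and not well above background later. It was at least 10.8-fold lower at 12 days. It passed the filter only through the 5-day arrays, so it had to differ. Cyp1b1 fell by 2.84 ± 0.34 from 5 to 12 days on the log2 scale (adjusted p = 0.000407), and Papss2, which makes the sulphate donor, by 2.36 ± 0.40 (adjusted p = 0.00306). The fourth, the sulphotransferase gene Sult1a1, was at least 9.49-fold lower at 12 than at 5 days and at least 3.26-fold higher at 60 than at 12 days (adjusted p = 0.000404 and 0.00188 by limma). Sts, the sulphatase that frees steroids from their sulphates, went the other way, from a range of -1.19 to -0.54 at 5 days to 2.73 to 2.96 at 60 days. Its change over that span was 3.61 ± 0.32 (adjusted p = 1.08e-05 by limma).

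Regulators of steroidogenic genes, a list of 20 that were all tested, had 3 rises and 5 falls from 5 to 12 days, 1 rise and 7 falls from 12 to 60 days, and 4 rises and 7 falls from 5 to 60 days (median log2 change 0.10, -0.33 and 0.06). The shares of all genes called were 12.4%, 25.4% and 35.3%, and no difference from them was tested. Nr5a1, known as SF-1 and the common activator of Star and the steroidogenic P450 genes, differed by -0.32 ± 0.63, 0.71 ± 0.63 and 0.39 ± 0.63 and was not called, with levels of -4.32 to -2.12 over the 9 arrays. Its repressor Nr0b1 changed by -1.77 ± 0.36 from 5 to 12 days (adjusted p = 0.00836 by limma), which slides 1 and 2 were each needed for (0.0997 and 0.107 without them). From 12 to 60 days it changed by 0.97 ± 0.36 (adjusted p = 0.0725, and 0.039 with the replicate block). Gata6, a GATA factor that acts with SF-1, rose by 2.84 ± 0.45 from 5 to 12 days on the log2 scale (adjusted p = 0.00203, and 0.153 on the spike-in scale), with levels of -1.52 to -0.34 at 5 days and 1.62 to 2.42 at 12 days. Nr2f1, an orphan nuclear receptor of stromal cells, fell by 7.30 ± 0.45 from 5 to 60 days (adjusted p = 1.25e-06), from a range of 5.03 to 5.61 to one of -2.85 to -1.64.

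Hormone receptors were as divided. Of 10 tested, 2 rose and 2 fell from 5 to 12 days, 1 rose and 3 fell from 12 to 60 days, and 3 rose and 3 fell from 5 to 60 days (median log2 change 0.15, -0.27 and 0.15). Beside these stand 12.4%, 25.4% and 35.3% of all genes called, and no difference was tested. Ghr, the growth hormone receptor, was at least 10.54-fold lower at 60 than at 5 days (adjusted p = 3.15e-05 by limma), and Egfr fell by 4.71 ± 0.54 on the log2 scale (adjusted p = 5.83e-05). Prlr, the prolactin receptor, was well above background only at 60 days, where it was at least 2.91-fold higher than at 12 days. It passed the filter only through that age, so it had to differ. Rxfp2, the receptor of Insl3, and both oestrogen receptors, Esr1 and Esr2, were on the array under the filter.

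**Figure D3:**
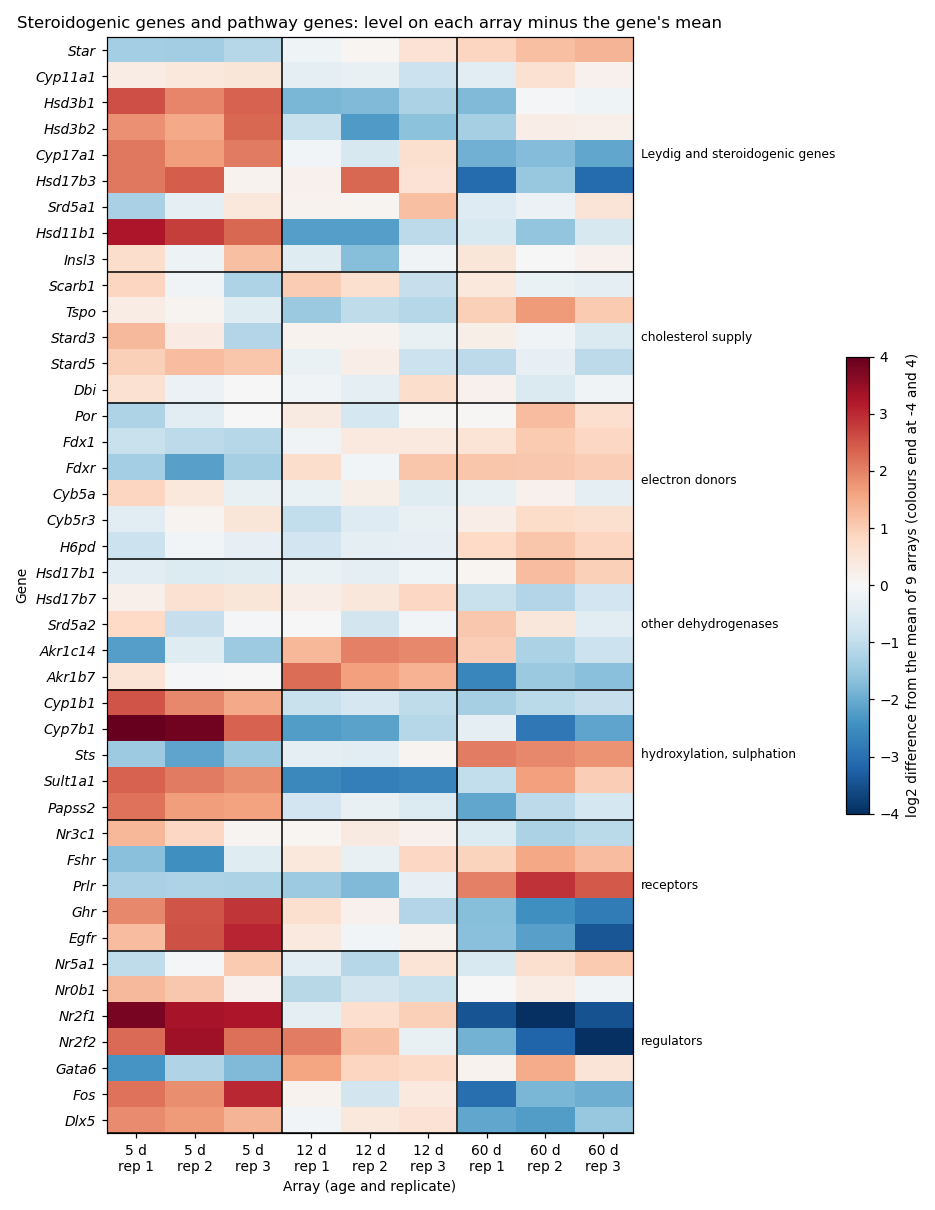
Level on each array minus the mean of the gene over the 9 arrays (colour, log2 difference, ending at -4 and 4), for the 9 genes tested (top) and the named genes of the 6 pathway lists. Columns are arrays in order of age and replicate. Star shares its colours with Fdx1 and Fdxr, low at 5 days and high at 60 days, while Hsd3b1, Hsd3b2 and Hsd11b1 are high at 5 days and low at 12 days.

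Promoter sequence was available for 7 of the 11 current genes in the RefSeq table of the GRCr8 build, which gives 250 bases before and 50 after the start of a gene. The letters AAGGTCA and AAGGCCA, forms of the SF-1 site, were searched on both strands and occurred in 0 of the 7, against 10.51% of 33469 promoters. No match says only that these letters are not in this window. The GATA letters AGATAA occurred in 1 of the 7, that of Hsd3b2, against 11.6% of all. The CRE letters TGACGTCA and the TATA letters TATAAA occurred in 0 of the 7, against 1.83% and 14.2%. The 250 bases upstream of Hsd3b1 (chr2:188864695-188864944) and Hsd3b2 (chr2:188794070-188794319, GRCr8, both minus strand) are shown because this pair had the closest course. They run 5′ to 3′ toward the start, with the GATA match in capitals at positions -53 to -48.
Hsd3b1 promoter: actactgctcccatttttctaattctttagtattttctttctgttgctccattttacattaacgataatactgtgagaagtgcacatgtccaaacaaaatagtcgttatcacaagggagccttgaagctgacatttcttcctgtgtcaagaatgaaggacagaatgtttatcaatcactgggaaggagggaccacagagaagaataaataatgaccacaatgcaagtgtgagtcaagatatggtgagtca
Hsd3b2 promoter: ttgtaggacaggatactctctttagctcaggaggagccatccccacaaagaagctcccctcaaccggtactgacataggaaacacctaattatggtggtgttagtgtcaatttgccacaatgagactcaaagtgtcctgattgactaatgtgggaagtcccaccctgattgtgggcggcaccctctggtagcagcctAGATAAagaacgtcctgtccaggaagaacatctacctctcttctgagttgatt

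For each of the 9 genes tested, the genes on the array whose centred levels lay closest over the 9 arrays were looked up, as a description of shape and with no test. The likeness is the root mean square difference of centred log2 levels. Star was closest to Ap1m2 (0.171) and Zwint (0.215), Cyp17a1 to Reg3b (0.224) and Slit2 (0.275), and Cyp11a1 to Ltb (0.151) and B4galt1 (0.165). Hsd3b1 was closest to Gpnmb (0.399) and Apol3l1 (0.405), Hsd3b2 to Entpd2 (0.481) and St6galnac2 (0.52), and Hsd11b1 to Plac8 (0.568) and Tac3 (0.569). Srd5a1 was closest to Rspry1 (0.139) and Cherp (0.24), Insl3 to Msh3 (0.405, the second closest), and Hsd17b3 to Epn3 (0.706) and Prxl2b (0.76). Cyp17a1, which fell at both steps, was 1.28 from Hsd3b1 and 1.30 from Hsd17b3, and the greatest distance within the set was 2.91, between Star and Hsd11b1.

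Markers of other cells moved with age on the same arrays. The counts of all marker lists stand beside general shares of 12.4% (5 to 12 days), 25.4% (12 to 60 days) and 35.3% (5 to 60 days). Upward these were 6.15%, 12.3% and 17.3%, and downward 6.3%, 13.1% and 18.0%. Of 17 tested Sertoli markers, 15 to 17 were well above background on each array, and 11 rose and 0 fell from 5 to 12 days, 5 rose and 2 fell from 12 to 60 days, and 11 rose and 1 fell from 5 to 60 days. Other Leydig lineage markers (14 tested) had 1 rise and 7 falls, 2 rises and 7 falls, and 1 rise and 8 falls in the same order. Their summed level, in units of the 75th percentile, was 153 to 297 at 5 days, 28.8 to 33.6 at 12 days and 11.8 to 21.6 at 60 days, and Cyp2a1 was never well above background. Pdgfra, of Leydig stem cells and stroma, fell by 7.56 ± 0.69 from 5 to 60 days on the log2 scale (adjusted p = 1.17e-05 by limma). Igf1, a growth factor of the interstitium, fell by 6.81 ± 0.45 (adjusted p = 1.61e-06). Not every gene of this list was called as falling over that span. Akr1c14 was higher at 12 than at 5 days (3.13) and lower again at 60 than at 12 days (-2.14). These values rest in part on background readings: at 60 days 1 of 3 arrays was well above background, and the 5-day mean was lower still. With the other 60-day arrays set at the lowest signal well above background, the fall of Akr1c14 was 1.73 (log2). Prlr was higher at 60 than at 5 days (3.72), but it passed the filter only through the 60-day arrays and had to differ. Nr5a1 was not called. Hsd3b1, Hsd3b2 and Hsd11b1 fell from 5 to 12 days, as Pdgfra and Igf1 did, while Star rose. The part of these cells in the changes of Hsd3b1, Hsd11b1, Cyp17a1 and Hsd17b3 was not tested, and in such bulk RNA fewer cells of a type and less RNA per cell cannot be told apart.

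Peritubular and fibroblast markers (11 tested) had 0 rises in any comparison, also by limma's unadjusted p under 0.05, and 4, 6 and 8 falls, with summed levels of 528 to 950 at 5 days, 327 to 462 at 12 days and 44.5 to 231 at 60 days. Macrophage markers (11 tested) had 0 rises and 8 falls from 5 to 12 days, 4 rises and 0 falls from 12 to 60 days, and 2 rises and 7 falls over the whole span. Their summed level was 7.56 to 12.6, then 2.46 to 2.88, then 3.41 to 4.10, and Cd163 was never well above background. Cyp11a1, Hsd3b1, Hsd3b2, Hsd11b1 and Insl3 had their lowest mean at 12 days, as this sum did, but none of them was called from 12 to 60 days. Cyp11a1 and Insl3 were not called from 5 to 12 days either, and a link to macrophages was not tested. Endothelial markers (5 tested) had 2 falls, 2 falls and 4 falls with 1 rise in the last, and Pecam1 and Tek were never well above background. Their summed level was 5.39 to 8.83, then 8.47 to 14.8, then 0.936 to 2.66.

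Germ cell markers rose with age, as Star did. Spermatocyte markers (10 tested) rose in 7, 10 and 10 cases, with summed levels of 0.18 to 0.211 at 5 days, 5.34 to 5.88 at 12 days and 74.2 to 146 at 60 days. Spermatid markers (10 tested) rose in 0, 9 and 9 cases, with summed levels of 0.251 to 0.453, 0.361 to 0.392 and 12.5 to 20.3. Germ cell markers that passed the filter only through a later age had to be higher there. At 12 days, where Star was higher than at 5 days, the spermatid sum lay within its 5-day range and the spermatocyte sum above its own. Without adjustment (limma, p under 0.05), 2 spermatid markers were higher at 12 than at 5 days. The part of germ cell RNA in the levels of Star and of the other genes was not tested.

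Of 6 adrenal-type genes, Cyp11b2, Cyp11b3, Cyp21a1 and Mc2r were never well above background. Cyp11b1 was at least 6.06-fold lower at 12 than at 5 days, but it passed the filter only through the 5-day arrays and had to differ. Mrap fell by 2.43 ± 0.37 from 5 to 60 days on the log2 scale (adjusted p = 0.000374 by limma). The summed level of the 2 tested genes, Cyp11b1 and Mrap, ran from 1.20 to 1.82 at 5 days and from 0.217 to 0.299 at 60 days. Its fall was in part fixed by the way Cyp11b1 passed the filter and gives no support to the falls of other genes.

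**Figure D4:**
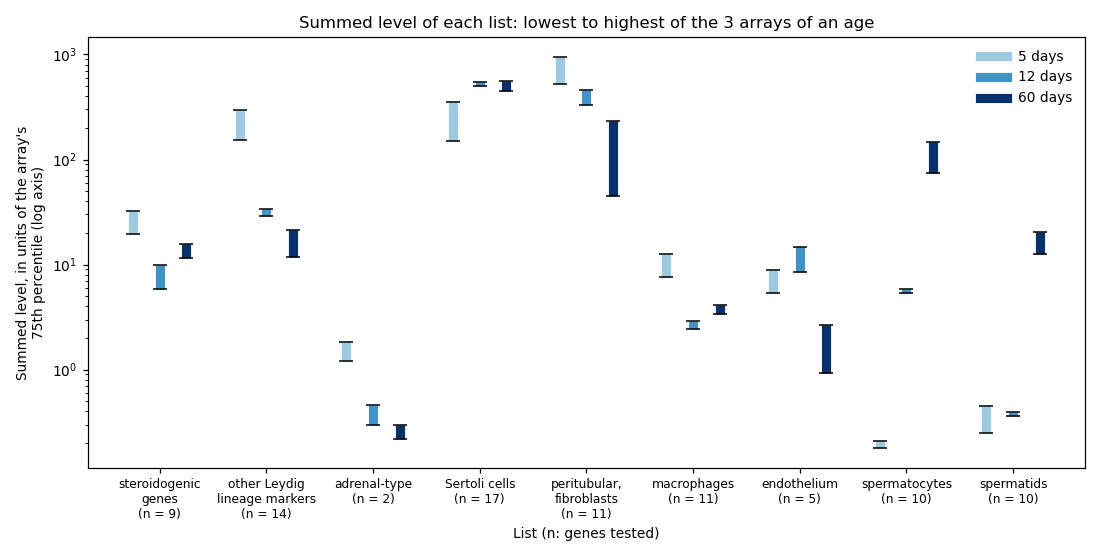
Summed level of the genes tested of each list (vertical axis, log scale, in units of the 75th percentile of the array) at the 3 ages. Each bar runs from the lowest to the highest of the 3 arrays of an age. The sum of the 9 steroidogenic genes is highest at 5 days and lowest at 12 days, the other Leydig lineage markers descend at each age, and spermatocyte markers climb. A sum follows its brightest probes, for the 9 genes Hsd11b1 at 5 days and Star at 60 days, and is not the course of each gene.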

How the data were processed

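RNA labelled with Cy3 by oligo-dT priming was hybridised to a rat 4x44k array, per the labels. The deposited scanner files hold a processed signal per spot, an intensity after background subtraction, per the file headers (Agilent Feature Extraction 9.5.3.1 for replicate 1 and 10.5.1.1 for replicates 2 and 3). The deposited value table of the authors holds log2 values. On each array, 99.3% to 99.7% of them lay within 0.01 of the log2 intensity minus a constant of that array, which was close to its 75th percentile. The 75th percentile was 150 to 437 intensity units, 49.7% to 63.2% of probes were well above background, and the number of arrays limits precision.

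Control spots, outlier spots and 254 probes without a usable value on every array were left out, spots of a probe were averaged, and log2 intensity minus the array's 75th percentile was used. Names followed RefSeq accessions (10826 probes), current symbols (5210, and 497 through the other file) or synonyms (3488). Others kept the file's name. The brightest probe stood for a gene. Limma 3.58.1 (R 4.3.3) fitted a mean per age to all 9 arrays (6 residual and 4.63 prior degrees of freedom), with 2-sided tests and Benjamini-Hochberg adjustment over 22529 genes, and was tested on simulated data. A gene rose or fell at an adjusted p under 0.05. Where no array of the lower age was well above background, the fold is a bound against the higher of the probe's signal and the lowest signal well above background on each array. Tables and plots used Python 3.11.15, pandas 2.3.3, numpy 2.4.6 and matplotlib 3.10.9.

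The genes, the 14 lists and the alternatives were chosen with earlier results of these data known, and 7 genes stand in more than 1 list. Named were all genes chosen by name, up to 5 genes per pathway list and 3 per cell type list (called genes with the largest change first, then the brightest), 10 genes whatever their change, and the 2 genes of closest course for each gene tested, drawn from symbols well above background wherever that gene was. Some genes that this rule names are not reported here. Replicate numbers are slides. After the mean of each age was taken out, arrays of the same number correlated (r 0.18 to 0.601) and those of different numbers did not exceed 0.094, so the numbers pair the arrays, and a fit with the number as a block was an alternative. The others were the scale (median, spike-ins, quantiles), the filter, single probes, normexp (with an offset of 50 units) and the deposited table. Further ones were a random block, limma with a trend, only the ages compared, a threshold of 0.01, and each replicate and array left out.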

Additional observations from a re-analysis of the deposited data

How the results depend on the processing

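Of 6171 values recomputed for 81 named genes, 5521 kept their direction and their side of the threshold, 455 lost a call and 62 gained one. The sign changed in 133, of which 131 were called neither before nor after, 9 of all 133 being values of the steroidogenic genes. The 2 with a call were Fdx1 (-0.11) and Zwint (-0.066), both from 5 to 12 days on the spike-in scale. The count of steroidogenic genes called from 5 to 12 days (5) became 2 when only genes well above background on all 9 arrays were tested, 0 with normexp and 2 with normexp and quantile normalization, an alternative chosen after seeing the data. The count from 12 to 60 days (3) became 1, 0 and 0 under these settings. From 5 to 60 days and by the F-test the counts (6 each) became 2 with the strict filter, which left 4 of the 9 genes in the test, 0 with normexp and 5 with normexp and quantile normalization. Over all genes the strict filter called 1535, 3266 and 4488 of 14666 in the 3 comparisons. Normexp with quantile normalization called 421, 1557 and 3129 of 20952. Normexp on replicates 1 and 3 called 4, 2 and 209 of all genes in the 3 comparisons, against 1057, 3039 and 5064 on the same arrays without it. Both normexp settings added an offset of 50 units, which makes folds of dim probes smaller, and its part in these counts was not tested.

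With replicates or single arrays left out, the counts ran from 3 to 5 for 5 to 12 days, from 1 to 5 for 12 to 60 days, and were 6 in each case for 5 to 60 days and by the F-test. The lowest came without replicate 2 and without replicate 3, and the 5 at 12 to 60 days came with slide 1 left out at 60 days. Of the 20952 to 22474 genes tested in these fits, 1057 to 3148, 3039 to 5719 and 5064 to 8026 were called in the 3 comparisons. With the replicate number as a block the counts were 6, 4, 6 and 7, through Insl3, and the block changed no other call of these genes. The block also called more of all 22529 genes, 3999, 7744, 10017 and 10673, against 2804, 5715, 7960 and 8268 without it. Signal limits what Cyp19a1 and Lhcgr can show, since neither was above background on any array.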
